A study of Homo sapiens with 12 samples.

Results

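Histones are the proteins around which nuclear DNA is wound, and 52 histone genes were found in 3 lists of RNA sites from HEK293T cells, an established line of human embryonic kidney origin. The genes were chosen by name alone, as core, variant and linker histones, from the 5812 genes named in any of the lists. They comprised 40 genes of the cluster type, 8 genes for replacement variants, the genes H3-4, H3-7 and MACROH2A1, and H2BP1, a pseudogene related to H2B. Of the 52, 28 lie on chromosome 6 and 15 on chromosome 1, where the histone gene clusters are. A table of human genes holds 83 protein-coding histone genes by current symbol, 70 of them cluster-type, 11 for replacement variants, and H3-4 and H3-7. These 83 serve as the denominator below. MACROH2A1 and H2BP1 are outside them, and they include H3-5, which the FTO list names H3F3C, a spelling that the choice by name did not take. H3-5 had 1 FTO cluster with 2 conversion events in its coding sequence.

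The series compared 12 samples. In m6A-seq, RNA fragments that carry N6-methyladenosine (m6A), a methylated base of mRNA, are pulled down with an antibody and sequenced alongside input RNA that skipped the pulldown, and the 4 groups of 2 samples were pulldown and input from cells given siTRMT10A or siCtrl, small interfering RNAs against TRMT10A or a control. In CLIP-seq, ultraviolet light crosslinks proteins to the RNA they touch, and anti-Flag beads recovered the protein from cells with TRMT10A overexpression (3 samples) or FTO overexpression (1 sample). TRMT10A is known for forming 1-methylguanosine in tRNAs, and FTO removes methyl groups from m6A. Both CLIP groups therefore show the sites of overexpressed proteins, and the knockdown with siRNA is not a deletion, nor can its effect on TRMT10A itself be read from the lists. The lists hold the authors' own calls with no values per sample, so read depth is unknown, the spread between replicates could not be measured, and no test between groups was possible. The intervals given below are 95% Wilson intervals and cover counting error only, and genes are not independent replicates.

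Cluster-type histone genes are transcribed as cells copy their DNA. Their usual mRNAs have no introns and end in a stem-loop in place of a poly(A) tail; the stem-loop is bound by SLBP, and the 3′ end is cut with the help of the U7 small nuclear ribonucleoprotein. Replacement variants such as H2A.Z and H3.3 are made throughout the cell cycle from polyadenylated mRNAs. The m6A-seq started from polyadenylated RNA and the CLIP-seq did not select for it, so the lists do not see cluster-type mRNAs equally well. Levels of histone mRNAs were not measured in these lists, and how far abundance moves with the number or height of sites was not tested. Several cluster-type genes are near-identical copies, among which reads can be divided or repeated.

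Some of these sites can be shown as sequence where they lie near a gene start. All sequences are from RefSeq, build GRCh38.p14, written 5′ to 3′ on the strand of the gene. Start positions of FTO clusters may be off by 1 base, since the counting base of that list is not stated. The FTO cluster of H4C2, which encodes core histone H4, covered the start codon (chr6:26027249-26027264, minus strand, 2 conversion events). It is shown because it is the histone cluster nearest to a gene start, and capitals mark the start codon.

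H4C2 FTO cluster: agctggttagacATGt

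The first 16 bases of an FTO cluster listed under both H4C14 and H4C15 (chr1:149832691-149832706 of a cluster that ends at base 149832743, plus strand, 3 conversion events) lie in coding sequence. They are shown as an example of a site that cannot be assigned to 1 gene. The RefSeq windows around the starts of these 2 genes, which hold 250 bases before and 50 after the start, were identical at 300 of 300 bases.

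H4C14 FTO cluster, first bases: ggcagaggaaagggcg

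An m6A peak of H2AJ began 69 bases before the RefSeq gene start and reached into the gene. H2AJ encodes the H2A variant H2A.J. The first 99 bases of the peak (chr12:14774336-14774434, plus strand) are shown with GGAC, a common form of the sequence around m6A, in capitals.

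H2AJ m6A peak, first bases: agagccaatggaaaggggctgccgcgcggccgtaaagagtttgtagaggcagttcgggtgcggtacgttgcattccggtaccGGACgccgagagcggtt

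GGAC, searched on the transcribed strand only, was found once in this stretch, 13 bases from the gene start. It was found in 32.7% of the 15843 windows of the same 99 positions in protein-coding genes and in 20% of 75 histone windows. The other histone m6A peaks with bases in a RefSeq window, 52 bases of H2AX and 41 bases of H1-10, had 0 matches there. Such a match is a description of letters and not a methylated site.

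TRMT10A sites were recorded in 23 of the 83 protein-coding histone genes, or 27.7% (interval 19.2 to 38.2%), against 13.0% of all 20056 protein-coding genes. FTO clusters were recorded in 37 of the 83, or 44.6% (34.4 to 55.3%), against 15.5% of protein-coding genes. Sites of both proteins were found in 10 of the 83, or 12% (6.68 to 20.8%), against 7.00%, a value that the interval includes. A further 13 genes had a TRMT10A site without an FTO cluster, 27 had an FTO cluster without a TRMT10A site, and 33 had neither. Taken as a whole, histone genes were thus listed more often than the average gene in each CLIP list, with the larger share in the FTO list. The 2 lists are not alike, with 5650 TRMT10A sites and 9579 FTO clusters. In addition, 12 FTO clusters are listed under 2 histone genes each, and no histone TRMT10A site is. Without those clusters, 32 of the 38 chosen genes with an FTO cluster were left. H1-7 and H1-8, both linker variants, and 30 cluster-type genes were in none of the 3 lists.

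The families differed in which protein was recorded. Among cluster-type genes, H2A had the most uneven split, with an FTO cluster in 10 of 17 genes and a TRMT10A site in H2AC16 alone. For H2B the counts were 6 of 19 with FTO clusters and 2 with TRMT10A sites, and no gene had both. The TRMT10A shares of H2A (5.88%, 1.05 to 27%) and H2B (10.5%, 2.94 to 31.4%) were below the 13.0% of protein-coding genes. Both intervals include that value. The TRMT10A shares of cluster-type H1, H3 and H4 were above it, from 33.3 to 38.5%. Cluster-type H3 genes had 5 of 13 in each list, and H4 genes had FTO clusters in 9 of 15 and TRMT10A sites in 5 of 15. The linker histone H1, which binds the DNA between nucleosomes, had both proteins on H1-2 and H1-4 and neither on the other 4 cluster-type genes. Cluster-type genes with sites of both proteins numbered 7, namely H1-2, H1-4, H3C2, H3C10, H4C4, H4C5 and H4C8. Among the replacement variants 6 of 11 had a TRMT10A site, 5 an FTO cluster and 3 both, H2AZ1 and H2AZ2 among them. None of these differences between families was tested, and the counts per family are small. The FTO counts of H2A, H3 and H4 each include a pair of near-identical copies that share their clusters.

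**Figure D1:**
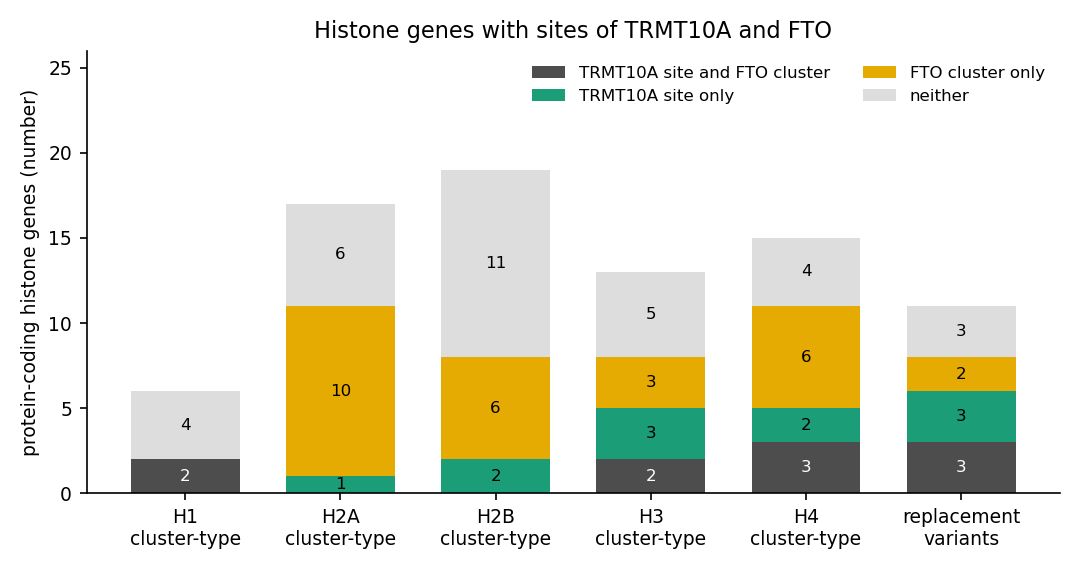
Number of protein-coding histone genes (vertical axis) by family and class, divided by whether the gene had a TRMT10A site, an FTO cluster, both or neither. Cluster-type H2A genes had an FTO cluster only in 10 of 17 genes, and cluster-type H2B was the family with the most genes in neither list, 11 of 19.

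The TRMT10A list held 34 sites in 25 histone genes, H2BP1 and MACROH2A1 included, and each site covered 1 to 10 bases. The height of a site is the authors' score and ranks sites within the list. Histone sites had a median height of 29.5 (quartiles 23 and 49.75), against 20 (17 and 25) over 5494 sites in protein-coding genes. At a height of at least 49 lay 10 of the 34 histone sites (29.4%) and 4.13% of the protein-coding sites. This limit is the height of a histone site, H4C8, so it was set by these data and the contrast is no test. At 84, the highest histone value, the shares were 2.94% and 1.24%. Of the 10 histone sites at 49 or more, 9 were in cluster-type genes.

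The highest site was in H3C2, a gene for core histone H3, at 84, and 69 of the 5650 sites of the whole list were that high or higher. The site of H1-2 reached 74 and that of H1-4 reached 66, both in genes for linker histone H1. H2AZ1, which encodes the variant H2A.Z that marks the nucleosomes around many promoters, had 3 sites with heights of 69, 31 and 20. It was the only replacement variant among the 10 genes with the highest sites. H3C10 followed at 59 and H3C13 at 57, both for H3. The H4 genes H4C4, H4C5 and H4C8 lay close together at 54, 53 and 49, and H2BC18, for core histone H2B, at 50. These values come from pooled libraries, so whether neighbours in this order differ beyond replicate spread cannot be told.

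The other TRMT10A sites were lower. H2AX, whose protein is phosphorylated beside broken DNA, had 1 site at 39. H3-3B, for the replacement histone H3.3, had 1 site at 35 in its 5′ UTR, and its partner gene H3-3A had 2 at 18 and 17. Both H3-3A sites were annotated in the list as non-coding, with an H3.3 pseudogene as the named gene, which leaves their gene uncertain. H3-7 had the most sites of any histone gene, 6 with heights from 16 to 35, of which 2 were in the 3′ UTR. Single sites of 36 in H2BP1, 30 in H4C16, 29 in H2BC6, 26 in MACROH2A1, 25 in each of H3C7, H4C9 and H2AC16, 19 in H3C3, 17 in H2AZ2 and 16 in H3-4 were also listed. Most genes had 1 site (21 of 25). At or above the median height of the list, 20, were 27 of the 34 histone sites and 2949 of all 5650 sites.

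**Figure D2:**
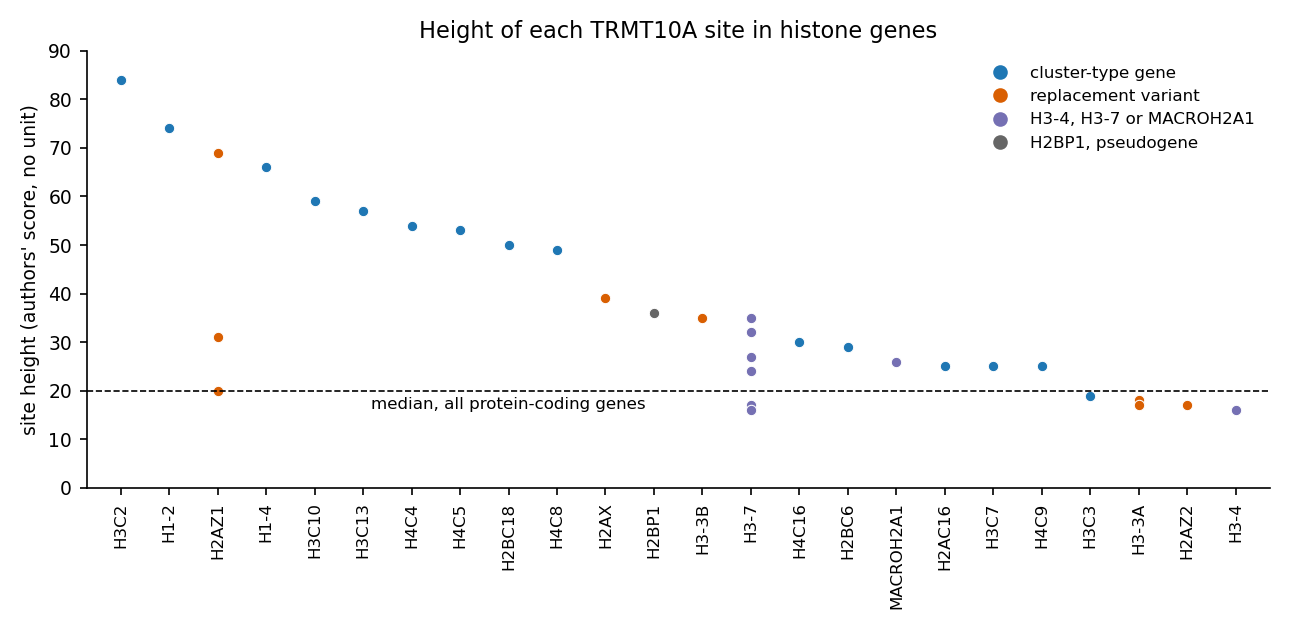
Height of each TRMT10A site (vertical axis, the authors' score without a unit) by histone gene, in order of the gene's highest site; each point is 1 site, and the dashed line is the median over protein-coding genes, 20. H3C2 had the highest site at 84, and H3-7 had 6 sites between 16 and 35.

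Coding exons held 26 of the 34 TRMT10A sites, 76.5% (60 to 87.6%), against 63.7% (62.4 to 64.9%) of protein-coding sites, and the interval of the histone share includes that value. The classes were unlike each other. All 15 sites in cluster-type genes were in coding exons, where their median height was 50. Of the 10 sites in replacement variants 5 were in coding exons, and the median height of the 10 was 23. For 3 of these 10 sites the list names another gene beside the label. It names DNAJB14 for 1 exon site in H2AZ1 and the pseudogene H3P6 for the 2 non-coding sites in H3-3A. Whether the label was taken from the named gene cannot be told, so this share is uncertain. In cluster-type mRNAs the coding sequence makes up most of the transcript, so a high coding share has less room to differ there.

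The FTO list held 81 distinct clusters in 38 histone genes, given in 100 lines. Conversion events are the base changes counted in a cluster, and their number is the authors' score. Histone clusters had a median of 3 events (quartiles 2 and 5), against 2 (2 and 4) over 8024 clusters in protein-coding genes. Over all 9579 clusters of the list the median was 3, the same as in histone genes. A count of 2 events was recorded for 28 of the 81 histone clusters and 10 or more for 5. These 2 counts were not taken over all clusters, so they show no difference from them. The list comes from 1 library, so no cluster has a replicate check.

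Among the histone genes H3C2 again came first, with a cluster of 54 events, followed by the H4 gene H4C8 with 20. Both lay in the upper tail of the 8024 clusters in protein-coding genes. Of those, 52 (0.648%) had at least 54 events and 133 (1.66%) at least 20, and the highest had 4320. H2AZ1 had the most clusters of any histone gene, 8, with 13 and 10 events in the highest of them and 4, 3, 2, 2, 2 and 2 in the others. H1-10, a linker variant, had 4 clusters, the highest with 11 events. Then came H4C3 with 9 events, H3C1 with 8, and H2BC4, H4C5 and the pair H4C14 and H4C15 with 7 each. H4C5 had 5 clusters, and so did the pair H4C14 and H4C15, which share theirs. H1-2, H2AC11, H3C2 and the pair H3C14 and H3C15 had 4 clusters each. The median was 2 clusters per bound histone gene, against 1 over the 3110 protein-coding genes with an FTO cluster.

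Near-identical copies carried part of these clusters. There were 12 clusters listed under 2 genes each, in the pairs H4C14 and H4C15, H3C14 and H3C15, and H2AC18 and H2AC19. None of those 6 genes had a TRMT10A site. Without the shared clusters 32 histone genes and 69 clusters were left. The clusters of H2AC7 also lie within the span of its neighbour H3C4.

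**Figure D3:**
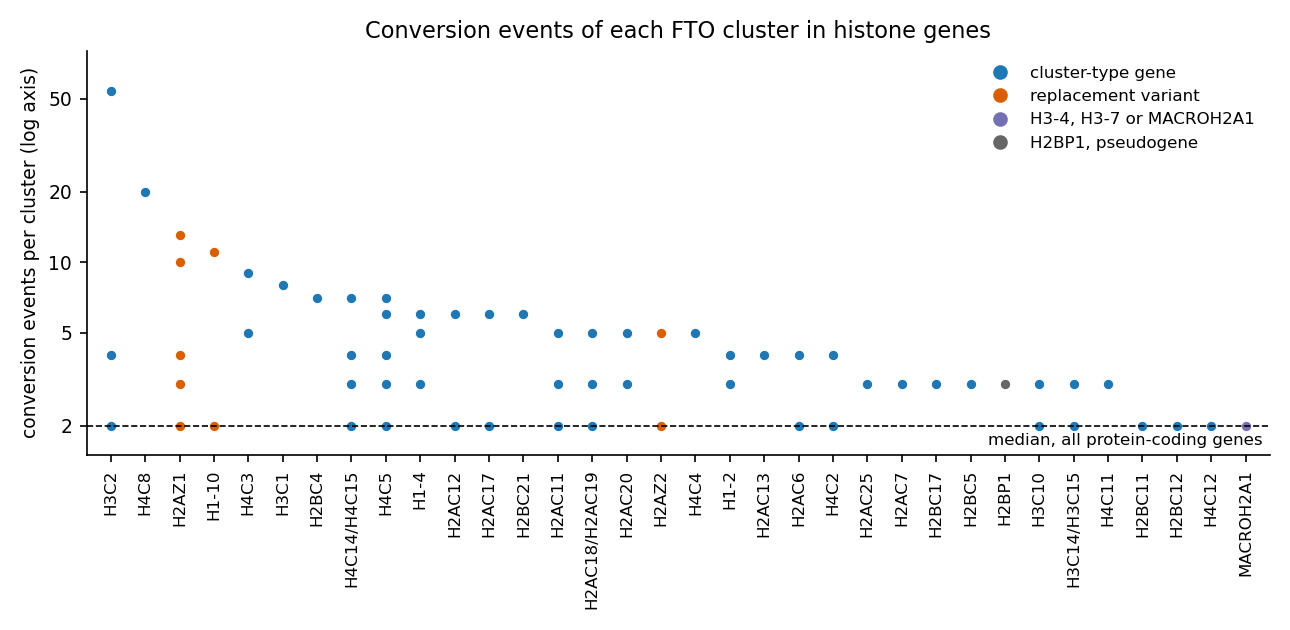
Conversion events of each FTO cluster (vertical log axis) by histone gene, in order of the gene's highest cluster; each point is 1 or more clusters with that count, genes that share their clusters stand together, and the dashed line is the median over protein-coding genes, 2. H3C2 reached 54 events and H4C8 reached 20, and all other histone clusters had 13 or fewer.

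Of the 81 FTO clusters, 57 were listed in coding sequence in any of their lines, 70.4% (59.7 to 79.2%). The same count gave 58.9% (57.9 to 60.0%) of protein-coding clusters. A further 12 were in the 3′ UTR, 2 in the 5′ UTR, 1 in an intron of MACROH2A1 and 1 in an unspecified UTR of H2BP1, and 8 had no location. In cluster-type genes 53 of 64 clusters were coding (82.8%, 71.8 to 90.1%). In replacement variants 4 of 15 were (26.7%, 10.9 to 52%). H2AZ1 accounted for 5 of the clusters in the 3′ UTR, the highest with 13 events, and its cluster with 10 events was in the coding sequence. Coding sequence thus held the larger part of both proteins' sites in cluster-type genes. In replacement variants it held 4 of 15 FTO clusters and 5 of 10 TRMT10A sites, the latter an uncertain share as said above. H2AZ1 alone gave 8 of those 15 clusters. Cluster-type mRNAs are mostly coding, so class and transcript structure cannot be told apart here, and the contrast was not tested.

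In the usual intronless mRNA of a cluster-type gene, distance from the gene start is position in the mRNA. For 6 of the 40 genes, H2BC4, H2BC5, H2BC12, H2BC18, H2BC21 and H4C15, the RefSeq span is longer, from 2224 to 29682 bases, and includes more than that mRNA, so distances there are positions in the gene only. The centres of the 15 TRMT10A sites lay between 156 and 319.5 bases from the RefSeq gene start, with a median of 232.5. The 64 FTO clusters spread more widely, from 26.5 to 516 bases with a median of 243.5, and 9 of them lay in the first 100 bases and 14 beyond 350. The 5 TRMT10A sites in H4 genes lay between 185.5 and 232.5 bases, and the 2 in H2B genes at 305 and 319.5. In the H3 genes the 5 sites ran from 156 (H3C10) to 298 (H3C3).

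Start codons could be located for 11 of the TRMT10A sites, which lay 133 to 271 bases downstream of the first base of the start codon. The 4 H4 sites among them were at 149.5 in H4C4, 184 in H4C8, 196 in H4C5 and 200 in H4C9. H4 proteins are nearly identical among their genes, so these 4 distances can be set side by side. The site of H4C4 lay nearer to the start codon than the others, and the 4 sites were not at 1 shared base. The H3 sites of H3C10 and H3C2 were at 133 and 136.5, and those of H3C7 and H3C3 at 224.5 and 271. The other sites were at 196.5 in H1-2, 166 in H2AC16 and 270 in H2BC6.

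**Figure D4:**
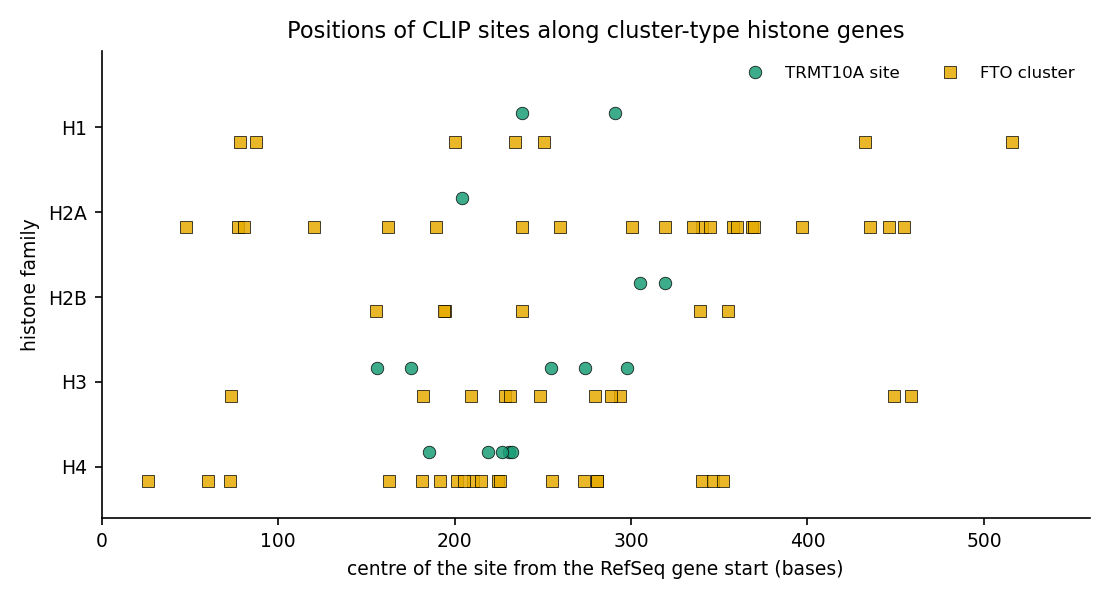
Centre of each TRMT10A site (circles) and FTO cluster (squares) in bases from the RefSeq gene start (horizontal axis), for cluster-type genes of each histone family (vertical axis). TRMT10A sites lie between 156 and 319.5 bases, and FTO clusters between 26.5 and 516.

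Shared bases between the 2 proteins were found for 5 of the 81 FTO clusters, 6.17% (2.67 to 13.6%), against 8.03% of protein-coding clusters. Seen from the other list, 5 of 34 TRMT10A sites (14.7%, 6.45 to 30.1%) shared bases with an FTO cluster, against 12.4% of protein-coding sites. These shares are near the background, so histone genes do not stand out in this measure. The shared sites were in 4 genes. In H3C2 the TRMT10A site with a height of 84 lay in an FTO cluster with 2 events (chr6:26031906-26031928), and the cluster with 54 events lay elsewhere in the gene, centred 293.5 bases from the start against 175.5 for the TRMT10A site. In H1-2 the site with a height of 74 lay in a cluster with 4 events (chr6:26056227-26056244). H2AZ1 had 2 shared positions, a height of 69 with 10 events (chr4:99949297-99949337) and a height of 31 with 4 events (chr4:99948451-99948487). The second of these sites was annotated nearest to the neighbouring gene DNAJB14. H2BP1 had the remaining one, a height of 36 with 3 events (chr1:121117007-121117056).

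In genes with both proteins, 11 of 15 TRMT10A sites had an FTO cluster of the gene at most 100 bases away. Of these 11, 5 shared bases with it, as above, and 6 did not. For those 6 the gap was 5 bases in H4C8, whose cluster there had 20 events, 10 in H4C5, 16 at the lowest H2AZ1 site, 25 in H1-4, 57 in H3C10 and 67 in H4C4. Short genes bring any pair of sites close together. The share of 11 of 15 was not counted over other genes with both proteins, so it cannot be called high or low. When gaps of at most 100 bases were counted too, 20 of the 81 FTO clusters (24.7%) had a TRMT10A site, against 21.9% of protein-coding clusters. H2AZ2 and MACROH2A1 had nearest gaps of 1493 and 13966 bases between the proteins.

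The m6A list holds only peaks that differed between siTRMT10A and siCtrl at the authors' threshold on the adjusted p, 0.05, so a gene that is not in it may still carry m6A. Differential peaks were listed for 5 of the 83 histone genes, 6.02% (2.6 to 13.3%), against 8.56% of protein-coding genes. Genes with a positive peak numbered 4 (4.82%) against 5.72%, and 1 (1.2%) had a negative peak against 3.08%. As a whole, histone genes were near the background in this list. All 5 genes were replacement variants, 5 of 11 (45.5%, 21.3 to 72%), and none of the 70 cluster-type genes had a peak (0%, upper limit 5.2%). The split into these classes was made with earlier results of these data known, so the contrast is no test. The RNA for m6A-seq was selected for poly(A) tails, which cluster-type mRNAs usually lack, so class and selection cannot be told apart here. Whether a positive value means more m6A after the knockdown is not stated in the table.

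There were 7 histone peaks, 6 of them positive. In the authors' deposited table, H1-10 had 3 positive peaks with log2 fold changes of 0.86, 0.78 and 1.40 (adjusted p 0.00126, 3.16e-13 and 1.58e-16). Their fold enrichments of pulldown over input in the authors' deposited table were 1.18, 1.22 and 2.7, low beside the median of 4.91 over all 2023 peaks. The peaks lie at chr3:129315155-129315214, chr3:129315539-129315716 and chr3:129316041-129316277. The strongest difference was in the peak nearest to the gene start, which covers bases 9 to 245 of the gene. H2AJ had a log2 fold change of 1.19 in the authors' deposited table (adjusted p 1.26e-13), with an enrichment of 7.18 (chr12:14774336-14775081). It was the 1 histone gene with a differential peak and no site of either protein.

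H2AX had a long peak with high enrichment and a smaller difference. For H2AX the authors' deposited table gives a log2 fold change of 0.45 (adjusted p 1e-14) and an enrichment of 14 (chr11:119093875-119095467), over nearly the whole gene of 1592 bases. H2AZ2, the second H2A.Z gene, had the 1 negative peak, with a log2 fold change of -0.46 in the authors' deposited table (adjusted p 0.0324) and an enrichment of 1.52 (chr7:44834293-44834473).

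Against the other peaks these differences were of ordinary size. Among the 1346 positive peaks of the authors' deposited table, 12.1% had a log2 fold change at least as large as the strongest H1-10 peak, 18.6% as H2AJ and 76.2% as H2AX. Among the 677 negative peaks, 59.7% were at least as large in size as that of H2AZ2. The median log2 fold change of the 6 positive histone peaks in the authors' deposited table was 0.82, against 0.70 over all positive peaks. Each of the 7 histone peaks lay in 1 block, as did 43.1% of all peaks.

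CLIP sites lay inside 5 of the 7 peaks. TRMT10A sites were in 2, against 14.1% of all m6A peaks. The H2AX peak held the TRMT10A site with a height of 39. FTO clusters were in 3, against 17.6% of all peaks. The middle H1-10 peak held the cluster with 11 events, the peak near the start of H1-10 held a cluster with 2, and the H2AZ2 peak held a cluster with 5. With 7 peaks these shares are loose, and long peaks hold more sites.

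**Figure D5:**
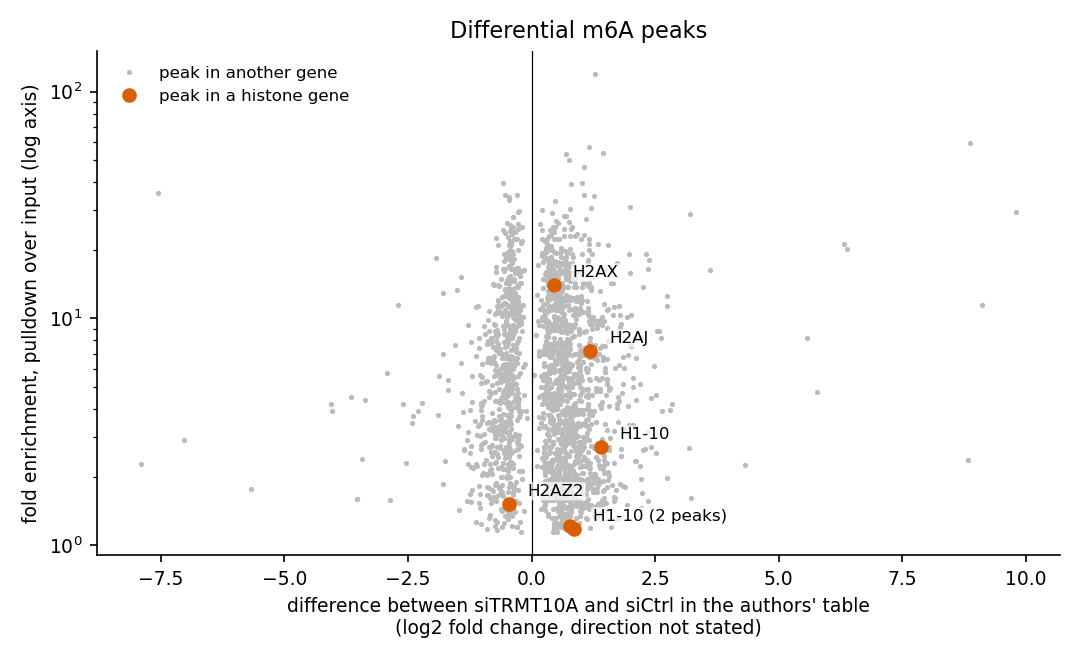
Log2 fold change between siTRMT10A and siCtrl (horizontal axis) and fold enrichment of pulldown over input (vertical log axis) of differential m6A peaks in the authors' deposited table, with 6 peaks in histone genes in orange. H2AX has an enrichment of 14, and the H1-10 peaks lie low on the vertical axis at 1.18, 1.22 and 2.7.

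Histone promoters share short sequence elements that the choice by name did not use. CCAAT is the motif of the factor NF-Y and TATAAA is the TATA box, and both were searched on both strands in windows from 250 bases before to 50 after the RefSeq start. CCAAT was found in 85.3% of 75 histone windows against 36.4% of 15843 protein-coding windows, and TATAAA in 64% against 9.63%. CCAAT was present in all windows of cluster-type H1, H2A, H2B and H3 genes (6, 16, 18 and 11 windows) and in 3 of 13 H4 windows. TATAAA was in 7 of 13 H4 windows. Among the 9 windows of replacement variants, 8 had CCAAT and 4 had TATAAA. The 100 bases before the start are shown for H3C2 (chr6:26032100-26032199, minus strand) and H4C8 (chr6:26285535-26285634, minus strand), the genes of the 2 clusters with the most FTO events, and for H2AX (chr11:119095466-119095565, minus strand), the replacement variant whose m6A peak covers the gene. Capitals mark CCAAT, its reverse complement ATTGG, and TATAAA.

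H3C2 promoter: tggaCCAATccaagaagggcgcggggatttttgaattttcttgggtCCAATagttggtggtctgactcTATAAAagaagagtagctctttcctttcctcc

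H4C8 promoter: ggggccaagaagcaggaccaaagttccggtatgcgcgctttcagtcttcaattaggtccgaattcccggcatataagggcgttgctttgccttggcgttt

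H2AX promoter: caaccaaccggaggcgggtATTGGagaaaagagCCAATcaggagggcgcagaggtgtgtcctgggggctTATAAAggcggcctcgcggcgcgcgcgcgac

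The H3C2 stretch holds CCAAT at 2 positions and TATAAA near the start, and the H2AX stretch holds both elements, while the H4C8 stretch has neither in these 100 bases. No match says only that these letters are absent from this stretch. Windows were found for 48 of the 52 genes. H2AC12, H2BP1 and H4C3 were among the others.

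Factors that process histone mRNA or carry histone proteins were described with the same lists. Of 48 such genes, 17 had a TRMT10A site (35.4%, 23.4 to 49.6%, against 13.0% of protein-coding genes), 27 an FTO cluster (56.3%, 42.3 to 69.3%, against 15.5%) and 13 both (27.1%, 16.6 to 41%, against 7.00%). Differential m6A peaks were listed for 13 (27.1%, against 8.56%), of which 10 had positive peaks (20.8%, against 5.72%) and 3 negative peaks (6.25%, against 3.08%). The 48 genes were listed by name with earlier results of these data known, so these shares describe the list and are no test. Levels of these mRNAs were not measured either.

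SLBP, the stem-loop binding protein, had 1 TRMT10A site with a height of 21 and 2 FTO clusters with up to 3 events. Of the genes of the cutting machinery, LSM10, a subunit of the U7 particle, had a log2 fold change of 0.59 in the authors' deposited table (adjusted p 1.58e-11). The cap-binding subunit NCBP2 had 0.33 (adjusted p 0.00832) and UPF1, a helicase of mRNA decay, 0.48 (adjusted p 0.000269), both from the authors' deposited table. CPSF3, the nuclease that cuts histone mRNA, had an FTO cluster with 4 events.

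Among histone chaperones, ASF1B had positive peaks of 0.37 and 1.57 (adjusted p 0.0191 and 1.91e-09) in the authors' deposited table, and its paralog ASF1A a negative peak of -0.63 (adjusted p 4.47e-05). CHAF1A, of the complex that places H3 and H4 on new DNA, had 0.17 and 0.86 in the authors' deposited table (adjusted p 0.0355 and 0.00263). For DAXX, an H3.3 chaperone, the authors' deposited table gives 0.53 and 0.42 (adjusted p 0.0263 and 0.00955). NASP had 0.15 (adjusted p 0.00631) and SUPT16H, a subunit of FACT, 0.39 (adjusted p 6.46e-05) in the authors' deposited table. MCM2, a helicase subunit that also holds H3 and H4, had a negative peak of -0.46 (adjusted p 9.77e-07) in the authors' deposited table.

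Genes that handle H2A.Z had peaks of both signs. In the authors' deposited table ANP32E, which removes H2A.Z, had 0.37 (adjusted p 0.000191), and VPS72, a subunit that binds H2A.Z, had 0.58 (adjusted p 2.45e-10). YEATS4, of the same remodelling complexes, had -0.86 (adjusted p 4.9e-05) in the authors' deposited table. The highest TRMT10A sites of the 48 genes were in CABIN1 (34), ANP32E (29), MCM2 (28), NAP1L1 (27), and HIRA and SRCAP (26 each). MCM2 had 9 TRMT10A sites, SRCAP 8 and SSRP1, the other FACT subunit, 7. SSRP1 also had the FTO cluster with the most events, 12, and NAP1L1 and UBN1 followed with 5 and CPSF3, SUPT16H, RBBP7, SET and SRCAP with 4. None of these sites reached the heights of the highest cluster-type histone genes, 84 in H3C2 and 74 in H1-2.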

How the data were processed

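The authors deposited 3 lists, and all values start from them. The m6A list gives, per the file headers, a log2 fold change, a ratio (fold enrichment of pulldown over input) and the log10 of adjusted p-values per differential peak. The TRMT10A list gives per site a height (the score) and, in the peak name, a p-value, per the file headers; it does not separate the 3 libraries and was taken as pooled. The FTO list gives a count of conversion events (score) per cluster, per the file headers, for 1 library. The submitters' processing notes name hg38 and DESeq2, without a version or role; the aligner and peak callers are not given in the sources used here.

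Genes were matched by Entrez identifier or symbol to RefSeq genes of GRCh38.p14 (2006 of 2023 m6A peaks, 6566 of 6571 TRMT10A lines, 18937 of 19163 FTO entries). Lines with the same position were merged, giving 5650 TRMT10A sites and 9579 FTO clusters. Where lines of an FTO cluster gave different locations, coding sequence was taken first, then 3′ UTR, 5′ UTR, unspecified UTR and intron. Sites shared bases if at least 1 base on the same strand was common. Shares carry 95% Wilson intervals. A class was read from the symbol: H1-1 to H1-6, H2AC, H2BC, H2BU, H3C, H4C and H4-16 are cluster-type.

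The values of 1 gene are not reported here, though it is kept in the counts. Other named genes were all with an m6A peak, the 10 with the highest TRMT10A site, the 10 with the most events in 1 FTO cluster, the 5 with the most sites in each list with ties, and all with shared bases; of the 48 processing genes, those with an m6A peak and the 5 highest in each CLIP list with ties. The other TRMT10A genes are given to account for every site. The members, the split into cluster-type genes and replacement variants, and the lists were chosen by name, with earlier results of these data known. The overlap step was tested on simulated data. A planned count model could not be fitted, as the lists give no values per sample. Tables were handled in Python 3.11.15 with pandas 2.3.3, intervals came from statsmodels 0.14.6 and plots from matplotlib 3.10.9.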

Additional observations from a re-analysis of the deposited data

How the results depend on the processing

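Of 26 alternatives over 11 results, 21 left the count within 1.5 times its value, the median within 1.5 times, or the share within its interval, and 5 moved it. A minimum of 1 on the size of the log2 fold change left 2 histone genes with an m6A peak in place of 5. Asking for conversion events above the list median of 3 left 24 genes with an FTO cluster in place of 38, and at least 3 events left 53 FTO clusters in place of 81. Requiring both a TRMT10A height of at least the list median of 20 and events above the list median left 7 genes with both proteins in place of 12. A gap of up to 100 bases raised the FTO clusters with a TRMT10A site from 5 to 20. In each of these the alternative asks more or less of the same sites. Leaving out clusters listed under 2 genes, or H3-7 with its 6 TRMT10A sites, was chosen after seeing the data and moved nothing by over 1.5 times. No paired analysis was possible because the tables give no values per sample. Read depth is unknown, the FTO list rests on 1 library, and leaving out a replicate was not possible for the same reason.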
